A study of Mus musculus with 15 samples.

Results

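The genes described here encode the subunits of the 5 protein complexes of the mitochondrial respiratory chain, as far as they are carried by nuclear DNA. They were taken as every gene whose single symbol on the array platform begins as a subunit of NADH dehydrogenase (complex I), succinate dehydrogenase (complex II), the cytochrome bc1 complex (complex III), cytochrome c oxidase (complex IV) or ATP synthase (complex V), with the assembly factors of complex I left out. This gave 55 of 14860 genes, with 27 in complex I, 4 in complex II, 6 in complex III, 10 in complex IV and 8 in complex V, each measured by 1 probe set. No filter on low values was applied, so all 55 entered every test. Another 7 probe sets carried such a symbol among several and were not used.

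Complexes I and II take electrons from NADH and succinate and pass them to ubiquinone, complex III hands them on to cytochrome c, and complex IV gives them to oxygen. Complexes I, III and IV pump protons across the inner membrane, and complex V makes ATP from the return flow. Most subunits are encoded in the nucleus and are made together with a few subunits from mitochondrial DNA, which were not examined here. In blood formation, resting stem cells are known for a low use of this chain, while dividing progenitors and leukaemic cells draw on it more.

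RNA came from Sca1+ mononuclear spleen cells, enriched with antibody-coated magnetic beads, of FVB/N mice that all carried at least 1 human transgene in the hemizygous state, with 1 Mouse Exon 1.0 ST array per mouse and 3 mice in each of 5 groups. MRP8NRASD12 mice expressed mutant NRASD12 from the myeloid MRP8 promoter. The tethBCL2 mice expressed human BCL-2 through a tetracycline transactivator driven by MMTVLTR (MMTVLTRtTA/TetO), and MRP8hBCL2 mice expressed it from MRP8. Crosses of these founders gave the HR-MDS mice (MRP8NRASD12/tethBCL2), a model of high-risk myelodysplastic syndrome whose spleens were taken at day 80, and the AML post MDS mice (MRP8[NRASD12/hBCL-2]), a model of acute myeloid leukaemia after myelodysplasia, taken at day 36. No age was found for the founders, the labels name AML as the disease state of all 15 samples, and arrays of FVB/N control mice were not used here, which leaves no normal spleen to compare with. The values are log2 signals as deposited, a difference of 1 means 2-fold, and a level is never compared between genes, because probes differ in brightness.

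The arrays fall into 2 series by the number in their titles. In the low series MRP8hBCL2 mice have numbers from 3012 to 3391 and AML post MDS mice from 3518 to 3626. In the high series tethBCL2 mice have numbers from 7465 to 7758, MRP8NRASD12 mice from 8157 to 8159 and HR-MDS mice from 8019 to 8398. Only the numbers of MRP8NRASD12 and HR-MDS mice overlap. In the other comparisons within a series, number and genotype cannot be told apart either. What the numbers stand for is not stated. Comparisons within a series are given first, since across them genotype and series cannot be told apart. Array 8157 (MRP8NRASD12) had the lowest mean correlation with its group, 0.976 against 0.981 to 0.994 for the others. The Y-linked gene Eif2s3y was between 3.64 and 4.01 in the 3 MRP8NRASD12 mice and in AML post MDS mouse 3518, and between 9.25 and 10.31 in the other 11 mice, so that comparisons with MRP8NRASD12 also set low against high Eif2s3y, apart from mouse 3518. Sca1 itself (Ly6a) was not measured by a probe set of its own symbol. The median level of 9 B cell markers was 10.84 or above on each of the 15 arrays. That of 17 neutrophil markers ran from 5.88 to 12.05. It was lowest on the 3 tethBCL2 arrays (5.88 to 6.31), under their median over all genes (6.73 to 6.76). In RNA from a mixture of cells, fewer cells of a type and less RNA per cell cannot be told apart.

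Between AML post MDS mice and their MRP8hBCL2 founders, 5 subunit genes of complexes II to IV were higher and none was lower. The 5 were Sdhd, Cyc1, Uqcrq, Cox6b1 and Cox5a, by 0.45 to 0.84 on the log2 scale. For 3 of them RefSeq (GRCm38.p6) gives a promoter window in the table used here, from 250 bases before to 50 bases after the gene start, and these windows are shown because they belong to the genes that differed between mice with and without NRASD12 on a BCL-2 background. Capitals mark letters that match a motif of NRF1 (GCGC, any base, then TGCGC) or of ETS factors (CCGGAAG), searched on both strands together with a motif of YY1 (AAGATGGC). These motifs do not overlap each other in the windows printed. Cyc1 and Uqcrq are named only.
Sdhd, chr9:50603800-50604099, minus strand: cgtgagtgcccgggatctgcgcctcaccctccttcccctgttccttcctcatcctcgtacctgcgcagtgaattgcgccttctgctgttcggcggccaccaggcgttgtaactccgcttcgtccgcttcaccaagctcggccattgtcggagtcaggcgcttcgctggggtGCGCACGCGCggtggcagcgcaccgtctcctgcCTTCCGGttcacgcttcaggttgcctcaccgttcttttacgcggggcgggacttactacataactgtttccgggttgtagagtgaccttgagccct
Cox6b1, chr7:30626065-30626364, minus strand: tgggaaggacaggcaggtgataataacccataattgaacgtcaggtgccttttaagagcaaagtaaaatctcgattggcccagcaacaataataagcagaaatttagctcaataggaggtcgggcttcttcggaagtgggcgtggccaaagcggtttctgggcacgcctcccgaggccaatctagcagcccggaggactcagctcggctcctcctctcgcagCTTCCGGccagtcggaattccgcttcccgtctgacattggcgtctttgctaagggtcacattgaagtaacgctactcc
Cox5a, chr9:57520982-57521281, plus strand: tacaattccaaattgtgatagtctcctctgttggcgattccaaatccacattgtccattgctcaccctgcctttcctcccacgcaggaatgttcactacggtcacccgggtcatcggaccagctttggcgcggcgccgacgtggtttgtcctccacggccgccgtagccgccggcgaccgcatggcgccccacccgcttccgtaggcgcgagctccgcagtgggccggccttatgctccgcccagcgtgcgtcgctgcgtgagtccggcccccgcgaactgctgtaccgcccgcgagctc
The window of Sdhd held an NRF1 motif 79 bases and an ETS motif 46 bases before the start, that of Cox6b1 an ETS motif 28 bases before the start, and that of Cox5a none of the 3 motifs, each distance taken to the first base of the match. Of the 55 genes 43 had a window. Among these, 9 (20.9%) held the NRF1 motif, against 5.19% of 27025 genes with windows of the same length. The ETS motif was found in 7 (16.3% against 9.93%) and the YY1 motif in 8 (18.6% against 3.19%), and 21 genes (48.8% against 16.4%) held at least 1 of the 3. The 27025 genes were not limited to the 14860 genes tested on the arrays. A match is only a run of letters, and no binding was measured.

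In complex II, Sdhd encodes one of the membrane anchors that bind ubiquinone. Its log2 values in the MRP8hBCL2 mice were 9.12, 9.08 and 9.40, and in the AML post MDS mice 9.94, 9.70 and 9.62. All AML post MDS arrays lay above all MRP8hBCL2 arrays, with a log2 fold change of 0.56 (SE 0.11, limma adjusted p = 0.0293). Sdhc, its partner in the anchor, was at 9.52, 9.58 and 9.46 against 10.13, 9.82 and 9.71, also without overlap, and did not pass (0.37, SE 0.12, limma adjusted p = 0.125). Sdhb, which carries the iron-sulphur centres, had a difference of 0.60 (SE 0.16, limma adjusted p = 0.0776), and Sdha, the flavoprotein that oxidises succinate, one of 0.02.

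Both complex III genes that passed lie on the path of electrons to cytochrome c or next to it. Cyc1 encodes cytochrome c1, the haem protein that reduces cytochrome c. It was at 9.69, 9.40 and 9.60 in MRP8hBCL2 and at 10.21, 9.96 and 10.10 in AML post MDS mice, 0.53 higher (SE 0.10, limma adjusted p = 0.0251). Uqcrq, a small subunit beside cytochrome b, was at 8.78, 8.63 and 8.78 against 9.28, 9.15 and 9.12, a difference of 0.45 (SE 0.09, limma adjusted p = 0.0234). For either gene the lowest AML post MDS array was above the highest founder array. Uqcrc1, a core subunit, had a difference of 0.35 (SE 0.09, limma adjusted p = 0.0551), just outside the threshold. Uqcrfs1, the Rieske iron-sulphur protein, had the lowest difference of all 55 genes, at −0.37 (SE 0.17, limma adjusted p = 0.33).

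In complex IV, Cox6b1, which faces the intermembrane space, had the largest difference of the 55 genes. Its MRP8hBCL2 arrays were spread from 9.86 to 10.56, with 10.13 between, and its AML post MDS arrays were at 11.25, 11.04 and 10.78, so the groups did not overlap (0.84, SE 0.17, limma adjusted p = 0.0266). Cox5a, a subunit on the matrix side, was at 9.33, 9.64 and 9.63 against 10.50, 10.11 and 10.07, 0.69 higher (SE 0.16, limma adjusted p = 0.0415). Cox4i1, the common form of subunit IV, had a difference of 0.27 (limma adjusted p = 0.141) and Cox6a1, the common form of subunit VIa, one of 0.16 (limma adjusted p = 0.544). Of the 4 forms restricted to certain tissues (Cox4i2, Cox6a2, Cox7b2 and Cox8b), 1 lay above 0 and their median was −0.12. The lowest AML post MDS arrays of all 5 genes that passed stand above the highest founder arrays in the plot of the genes that passed.

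**Figure D1:**
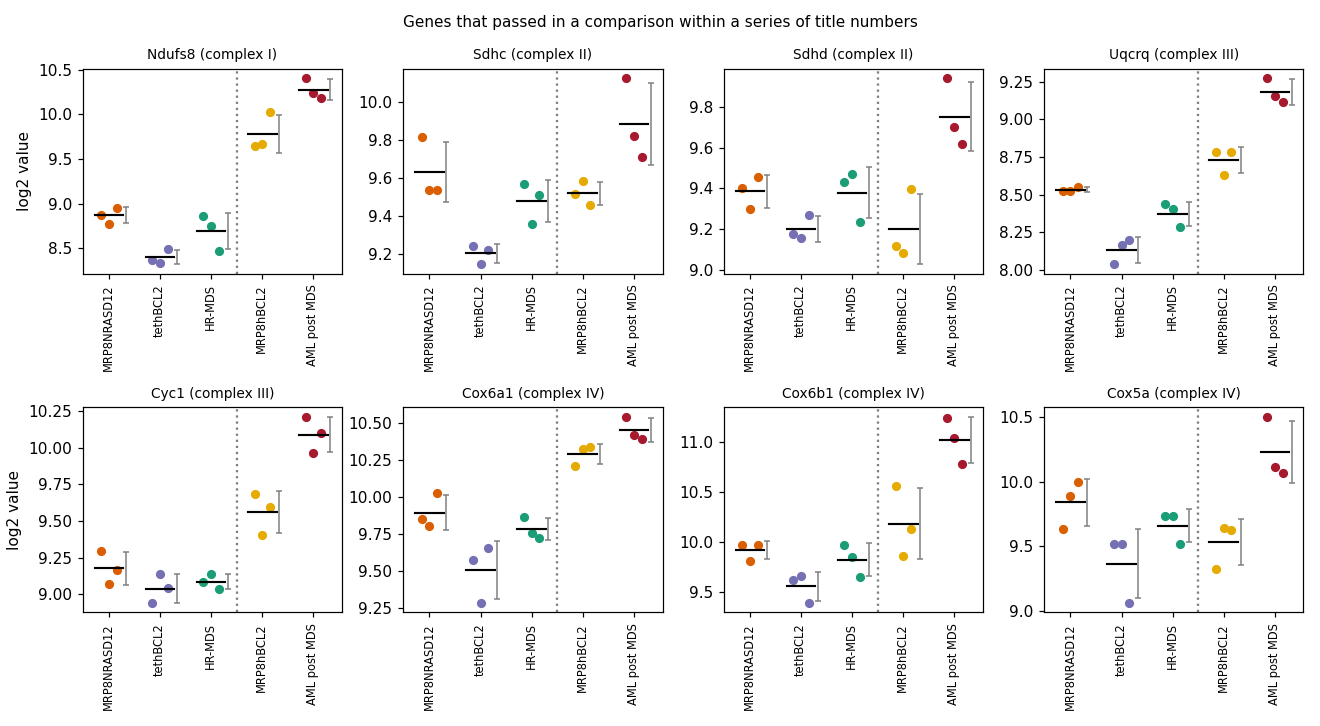
Log2 value of each array for the 8 subunit genes that passed in a comparison within a series, by group. Points are mice, black lines group means, grey bars the SD (n = 3), and the dotted line separates the series. In Uqcrq all 3 AML post MDS arrays (9.12 to 9.28) lie above the MRP8hBCL2 arrays (8.63 to 8.78), and all 3 tethBCL2 arrays (8.04 to 8.20) lie below the MRP8NRASD12 arrays (8.52 to 8.55).

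Complexes I and V had no gene past the threshold in this comparison. Ndufs8 and Ndufb9, of the iron-sulphur path and the membrane arm of complex I, came nearest in complex I, with differences of 0.50 (SE 0.13, limma adjusted p = 0.0621) and 0.57 (SE 0.16, limma adjusted p = 0.0884). Atp5g3, one of the genes for the rotating ring of ATP synthase, had 0.43 (SE 0.13, limma adjusted p = 0.101), Atp5a1, the alpha subunit, 0.37 (SE 0.11, limma adjusted p = 0.103), and Atp5b, the catalytic beta subunit, 0.19 (SE 0.09, limma adjusted p = 0.319). Within complex I the median was 0.10 over 8 genes of the NADH-binding module, 0.18 over 6 of the ubiquinone-binding module and 0.32 over 13 of the membrane arm.

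Over all 55 genes, 5 (9.09%) were past the threshold upward, against 1.29% of all genes tested, and none downward, against 0.646%. At an unadjusted p under 0.05 the counts were 21 upward and 0 downward, against 10.1% and 5.67%. By the methods' t-test, also unadjusted, they were 20 and 0, against 907 and 604 of all 14860 genes. In AML post MDS mice 24 genes (43.6%) lay above all 3 MRP8hBCL2 arrays, against 11% of all genes, and 1 (1.82%) lay below, against 7.21%. The median log2 fold change was 0.26 against 0.03 for all genes, and 43 genes (78.2%) were above 0 against 57.1%. By complex the median was 0.20 in I, 0.46 in II, 0.40 in III, 0.19 in IV and 0.28 in V. The count past the threshold was not stable. It was 0 when only these 6 arrays were fitted, 0 in the methods' t-test after adjustment, 10 after quantile normalization, and between 0 and 9 when 1 array was left out (0 without MRP8hBCL2 3386, AML post MDS 3622 or 3626, 1 without MRP8hBCL2 3012 or AML post MDS 3518, and 9 without MRP8hBCL2 3391). Apart from the methods' t-test, calls over all genes were not counted in these settings. The median over the subunit genes stayed between 0.18 and 0.31 when an array was left out.

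Markers of cell types and of dividing cells also differed between these groups, some upward and some downward. Of 14 proliferation genes, 12 were higher in AML post MDS than in MRP8hBCL2 mice, with a median of 1.49, and the median level of the list was 7.68, 7.87 and 9.23 in the founders (3012, 3386 and 3391) and 10.16, 9.74 and 9.60 in AML post MDS mice. Neutrophil markers were higher for 2 of 17 (median 1.32, levels of 9.08 to 10.34 against 10.08 to 11.36), and no marker of monocytes and macrophages (median 0.64 over 16), plasma cells (0.50 over 8), erythroid cells (0.16 over 8), B cells (−0.35 over 9) or T cells (−0.59 over 8) passed. At an unadjusted p under 0.05, all 8 T cell and 4 of 9 B cell markers were lower (5.67% of all genes). By the same measure 6 of 16 monocyte and macrophage, 3 of 8 plasma cell and 1 of 8 erythroid markers were higher (10.1% of all genes). The part of these markers in the differences of the subunit genes was not tested.

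Between HR-MDS mice and their tethBCL2 founders, no subunit gene passed, against 0.424% of all genes higher and 0.0269% lower. With the unadjusted p under 0.05 limma gave 7 genes higher and 2 lower (8.4% and 2.91% of all genes). The methods' t-test gave 9 and 2, against 1586 and 879 of all 14860 genes. The differences were small and mostly upward. Of the 55 genes 43 (78.2%) were above 0, against 59.1% of all genes, with a median of 0.16 against 0.04, and 14 (25.5%) lay above all founder arrays against 16.6%, while 3 (5.45%) lay below against 9.53%. The medians of complexes I to V were 0.16, 0.13, 0.14, 0.23 and 0.16. When each array's median was subtracted, the median over the 55 genes became −0.01 and that over all genes −0.14. After quantile normalization these medians were 0.14 and −0.04. The direction thus depended on which scaling was used. In the deposited values the median of the subunit genes lay 0.12 above that of all genes. Subtracting array medians shifts all genes of an array alike, so this gap is by construction the same with array medians subtracted.

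Uqcrq was at 8.04, 8.17 and 8.20 in tethBCL2 and at 8.43, 8.40 and 8.28 in HR-MDS mice. The groups did not overlap, and the difference of 0.24 (SE 0.09, limma adjusted p = 0.282) did not pass. The same held for Cox6a1, at 9.58, 9.29 and 9.66 against 9.87, 9.76 and 9.72 (0.28, SE 0.11, limma adjusted p = 0.327), for Cox4i1, at 9.52, 9.42 and 9.44 against 9.72, 9.76 and 9.58 (0.23, SE 0.09, limma adjusted p = 0.34), and for Sdhc, at 9.24, 9.15 and 9.22 against 9.57, 9.36 and 9.51 (0.28, SE 0.12, limma adjusted p = 0.379). Atp5b had a difference of 0.18 (limma adjusted p = 0.472) and Ndufv2, of the NADH-binding module, one of 0.27 (SE 0.19, limma adjusted p = 0.663). The opposite direction was seen in a pair of membrane-arm subunits of complex I. Ndufb10 was at 6.64, 6.57 and 6.63 in tethBCL2 and at 6.41, 6.21 and 6.16 in HR-MDS mice (−0.35, SE 0.12, limma adjusted p = 0.261), and Ndufb11 at 8.5, 8.56 and 8.4 against 8.23, 7.83 and 8.23 (−0.38, SE 0.14, limma adjusted p = 0.28).

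Beside these differences, 13 of 17 neutrophil markers were higher in HR-MDS than in tethBCL2 mice, with a median of 3.70 and list levels of 5.88 to 6.31 against 10.35, 10.91 and 7.96 (HR-MDS 8111, 8019 and 8398). Proliferation genes were higher for 6 of 14 (median 1.59), monocyte and macrophage markers for 2 of 16 (1.15) and plasma cell markers for 1 of 8 (1.17). No B cell (median −0.25), T cell (−0.19) or erythroid (0.32) marker passed. Their part in the differences of the subunit genes was not tested.

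Against the other founder, MRP8NRASD12, no subunit gene of HR-MDS mice passed, with 0.0135% of all genes higher and 0% lower. With the unadjusted p under 0.05 limma gave 1 gene higher and 1 lower (2.52% and 3.58% of all genes). The methods' t-test gave 1 and 2, against 288 and 213 of all 14860 genes. The median was −0.06 against 0.00 for all genes, and 16 genes were above 0 (29.1% against 49.7%). HR-MDS arrays lay above all MRP8NRASD12 arrays for 1 gene (1.82%, against 3.99%) and below them for 4 (7.27%, against 3.87%). Cox6a2, the form of subunit VIa known from heart and muscle, was at 7.30, 7.17 and 7.29 in MRP8NRASD12 and at 7.67, 7.68 and 7.64 in HR-MDS mice, without overlap (0.41, SE 0.14, limma adjusted p = 0.79). Ndufa12, of the NADH-binding module, was at 8.78, 8.62 and 9.0 against 8.40, 8.59 and 8.42 (−0.33, SE 0.15, limma adjusted p = 0.816). The neutrophil markers had a median of −1.44, none of the 17 passing, and all 17 were below 0. At an unadjusted p under 0.05, 13 of the 17 were lower (3.58% of all genes). By the same measure 2 of 16 monocyte and macrophage markers were lower (median −0.17) and 2 of 8 T cell markers higher (0.28). No marker of B cells (median 0.17), erythroid cells (−0.23) or plasma cells (0.07) and no proliferation gene (−0.32) reached it. Their part in the differences of the subunit genes was not tested.

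The founders themselves differed. In tethBCL2 compared with MRP8NRASD12 mice, 4 subunit genes were lower and none was higher, 1 in each of complexes I to IV. This is 7.27% of the 55 genes, close to the 5.98% of all genes that were lower, and 2.85% of all genes were higher. The unadjusted p was under 0.05 for 1 gene upward (9.3% of all genes) and 14 downward (13.8%). By the methods' t-test, also unadjusted, the counts were 2 and 11, against 940 and 1584 of all 14860 genes. The median was −0.21 against −0.05 for all genes, 12 genes were above 0 (21.8% against 41.5%), and 18 genes (32.7%) lay below all MRP8NRASD12 arrays against 15.3% of all genes, while 3 (5.45%) lay above against 9.5%. By complex the medians were −0.21, −0.11, −0.17, −0.25 and −0.21 from I to V.

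Uqcrq was at 8.52, 8.52 and 8.55 in MRP8NRASD12 mice and at 8.04, 8.17 and 8.20 in tethBCL2 mice, and fell by 0.40 (SE 0.09, limma adjusted p = 0.0127). Ndufs8, an iron-sulphur subunit on the way to ubiquinone, was at 8.88, 8.77 and 8.96 against 8.37, 8.34 and 8.49, and fell by 0.47 (SE 0.13, limma adjusted p = 0.0356). Sdhc was at 9.81, 9.54 and 9.54 against 9.24, 9.15 and 9.22 and fell by 0.43 (SE 0.12, limma adjusted p = 0.0372). Cox6a1 was at 9.85, 9.80 and 10.03 against 9.58, 9.29 and 9.66 and fell by 0.39 (SE 0.11, limma adjusted p = 0.039). For all 4 genes the arrays of both founders were apart, with HR-MDS means of 8.37, 8.69, 9.48 and 9.78 in between. Over the 55 genes the HR-MDS mean lay between those of its founders for 37 genes, tethBCL2 had the lowest mean of the 3 groups for 40 and MRP8NRASD12 the highest for 35.

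These 4 calls also depended on the scaling and on single arrays. With each array's median subtracted, none of the 4 passed and 5 other subunit genes were higher instead (Atp5mpl, Cox6a2, Ndufa5, Ndufa6 and Ndufb11, by 0.44 to 0.60). Apart from the methods' t-test, calls over all genes were counted neither under this scaling nor in the settings that follow. With array medians subtracted the median over the 55 genes was 0.00 and that over all genes 0.16. After quantile normalization these medians were −0.15 and 0.04. The count was 0 when only the 6 arrays were fitted or with the methods' t-test after adjustment, 9 (1 higher and 8 lower) after quantile normalization, and between 0 and 12 when 1 array was left out (0 without tethBCL2 7758, 1 without MRP8NRASD12 8158 or 8159 or tethBCL2 7465, and 12, with 4 higher and 8 lower, without MRP8NRASD12 8157). All 17 neutrophil markers were lower in tethBCL2 mice (median −5.28), as were 13 of 14 proliferation genes (−1.90), 12 of 16 monocyte and macrophage markers (−1.41), 5 of 8 plasma cell markers and 3 of 8 erythroid markers, whereas 1 of 9 B cell, 2 of 8 T cell and 1 of 8 plasma cell markers were higher. Their part was not tested. Eif2s3y differed between both founders in every mouse. If this 1 gene marks sex, then sex and genotype of these founders cannot be told apart.

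**Figure D2:**
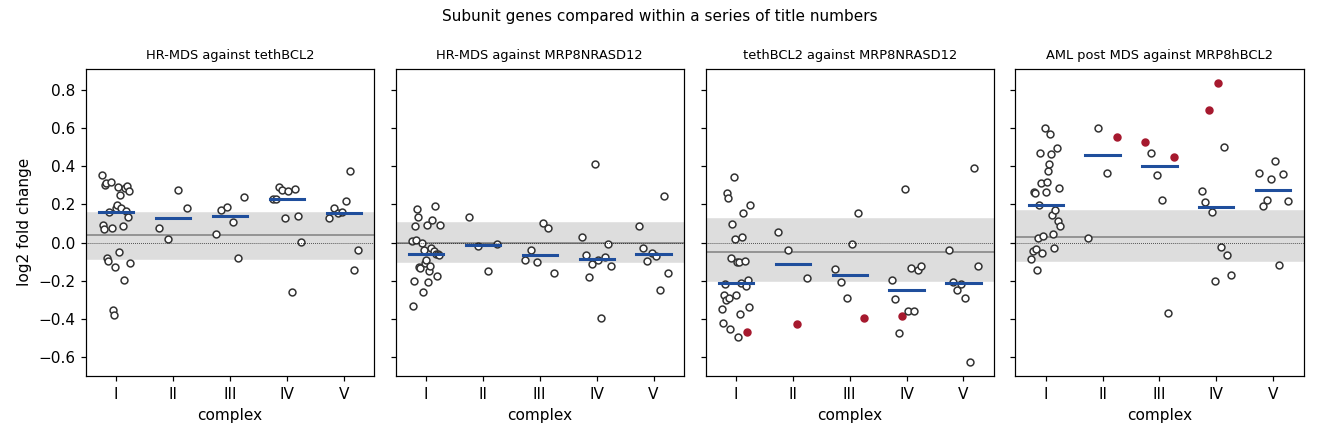
Log2 fold change of each subunit gene (points) by complex in the 4 comparisons within a series. Red points passed (limma adjusted p under 0.05), blue bars are medians of a complex, and the grey line and band are the median and the middle 50% of all 14860 genes. The medians of all 5 complexes lie above that of all genes for AML post MDS against MRP8hBCL2 and for HR-MDS against tethBCL2, and below it for tethBCL2 against MRP8NRASD12.

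NRASD12 was added to a BCL-2 background in both models, and the 2 comparisons share no array. In both of them 35 of 55 genes (63.6%) were above 0 as deposited, against 41.4% of all genes. With each array's median subtracted, 25 of the 55 were above 0 for HR-MDS against tethBCL2 and 39 for AML post MDS against MRP8hBCL2. The genes above 0 in both were not counted under that scaling. Whether the differences themselves were unequal was tested as an interaction, AML post MDS less MRP8hBCL2 against HR-MDS less tethBCL2. No subunit gene passed, and neither did any of all 14860 genes (0% higher and 0% lower). With the unadjusted p under 0.05 limma gave 6 subunit genes higher in the AML post MDS pair and none lower, against 2.05% and 2.56% of all genes. Cyc1 had the smallest p, with 0.48 (SE 0.15, limma adjusted p = 0.88), from 0.05 in the HR-MDS pair and 0.53 in the AML post MDS pair. Ndufb2, a membrane-arm subunit, had the largest value (0.73, SE 0.31, limma adjusted p = 0.9999), and Sdhb, Sdhd, Cox6b1 and Ndufb8 were the others. The median over the 55 genes was 0.12 against −0.01, and 40 genes (72.7%) were above 0 against 47.4%.

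The mean log2 level of the 55 genes, taken over the same genes on each array, was 8.46 ± 0.11 in MRP8NRASD12, 8.30 ± 0.018 in tethBCL2, 8.42 ± 0.055 in HR-MDS, 8.70 ± 0.093 in MRP8hBCL2 and 8.94 ± 0.13 in AML post MDS mice (SD, n = 3). The AML post MDS arrays (8.82 to 9.08) were all above every other array, and the tethBCL2 arrays (8.28 to 8.32) were all below as deposited. With each array's median over all genes subtracted, AML post MDS arrays (1.88 to 1.98) were again the highest, whereas tethBCL2 arrays (1.55 to 1.56) lay within the range of MRP8NRASD12 arrays (1.45 to 1.58) and above all HR-MDS arrays (1.48 to 1.55). The arrays of HR-MDS (8.35 to 8.45) and MRP8NRASD12 mice (8.36 to 8.58) overlapped. AML post MDS had the highest mean of the 5 groups for 35 of the 55 genes. By complex the gap between the series was widest in complex I, at 8.06 to 8.21 in the groups with high numbers against 8.66 and 8.86. In complexes II, IV and V the MRP8hBCL2 arrays reached down into the range of the groups with high numbers.

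**Figure D3:**
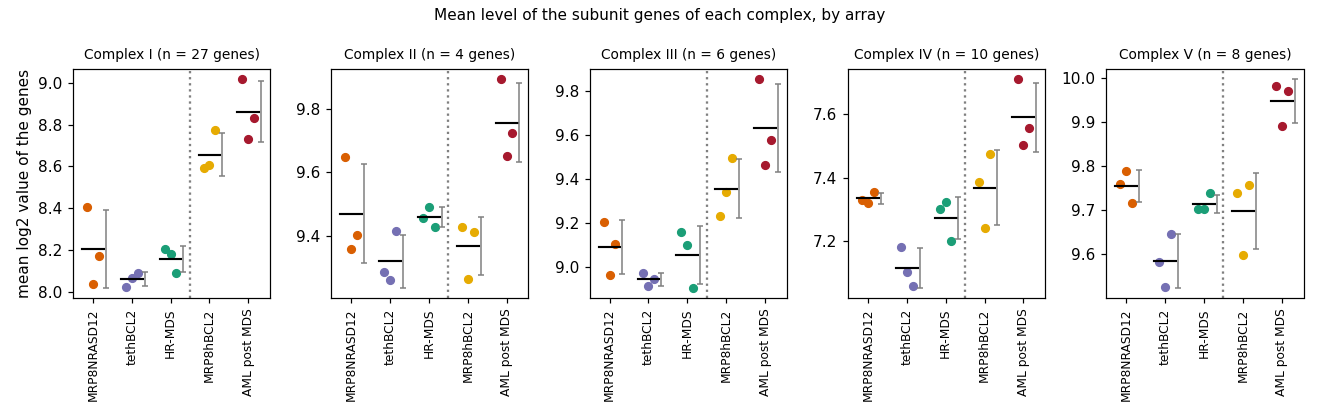
Mean log2 value of the subunit genes of each complex on each array (points), with group means (black lines) and SD (grey bars, n = 3). The dotted line separates the series. In complex I all 6 arrays of MRP8hBCL2 and AML post MDS mice (8.59 to 9.02) lie above the other 9 (8.02 to 8.41), and in complex V the MRP8hBCL2 mean (9.70) lies among those of the groups to its left (9.58 to 9.75).

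Across the series the differences were larger, and genotype and series cannot be told apart in any of them. The 3 such comparisons share arrays with each other and with those above. All 6 arrays of the low-numbered series lay above all 9 others for 18 subunit genes (32.7%), against 7.82% of all genes, and below them for 3 (5.45%), against 5.37%. Of the 18 genes 14 are in complex I. The mean levels of the series were at least 2-fold apart for 12 of the 55 genes (21.8%, against 4.67% of all genes), and the median absolute difference was 0.45 against 0.19 on the log2 scale.

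The step was not uniform within a complex. In complex I, Ndufs7, whose iron-sulphur cluster hands electrons to ubiquinone, was between 9.87 and 10.38 on the 9 arrays with high numbers and between 12.01 and 12.40 on the 6 others. Ndufa2 (6.43 to 7.43 against 8.70 to 9.36), Ndufb3 (9.0 to 9.63 against 10.45 to 11.47) and Ndufc2 (7.97 to 8.69 against 9.80 to 10.62) showed the same gap. Ndufs1, which holds most iron-sulphur centres of the NADH-binding module, went the other way, at 9.08 to 9.93 against 8.05 to 8.63. In complex V the delta subunit of the central stalk, Atp5d, was at 10.28 to 10.69 against 12.29 to 12.64, while the alpha subunit of the same F1 head, Atp5a1, was 0.47 lower on average in the low-numbered series and the beta subunit, Atp5b, 0.37 higher. Ndufs1 and Atp5a1 were singled out after their values were seen. Ndufs7 differed by 0.17 between AML post MDS and MRP8hBCL2 mice (limma adjusted p = 0.54) and by 0.17 between HR-MDS and tethBCL2 mice (limma adjusted p = 0.651).

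**Figure D4:**
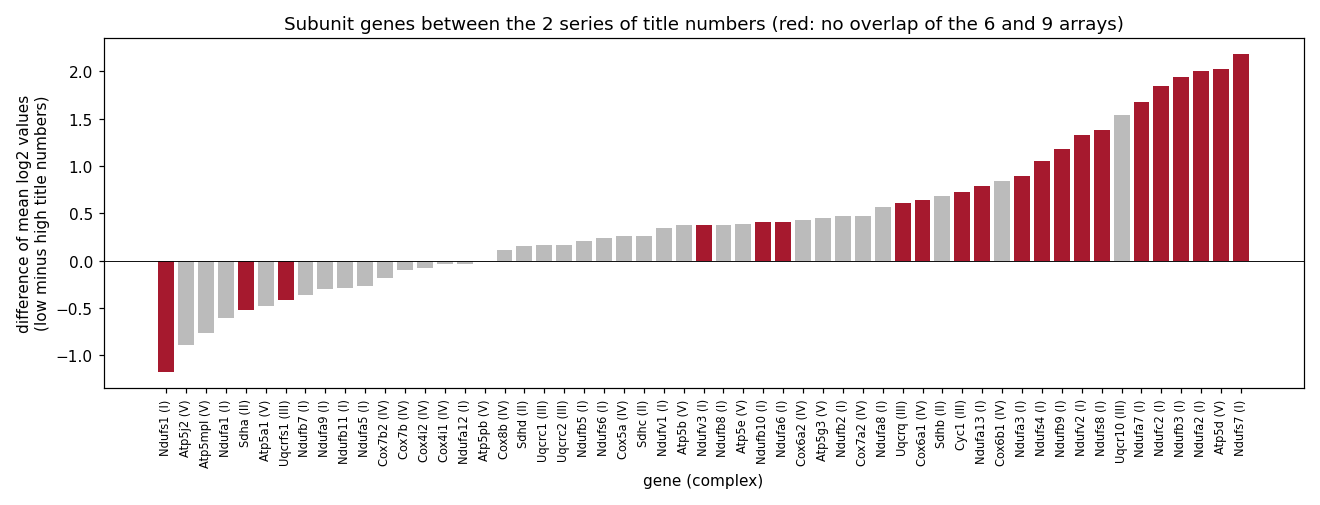
Difference of the mean log2 values of the 6 arrays with low title numbers (MRP8hBCL2 and AML post MDS) and the 9 with high numbers, for each subunit gene, with its complex in brackets. Red bars mark the 21 genes whose arrays do not overlap between the series. They run from −1.17 (Ndufs1) to 2.19 (Ndufs7).

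AML post MDS compared with MRP8NRASD12 mice, its other founder, gave 28 subunit genes higher and 4 lower (50.9% and 7.27%, against 13.6% and 8.74% of all genes), with a median of 0.39 against −0.01. Ndufs7 (2.17, SE 0.11, limma adjusted p = 2.48e-07), Sdhb (0.96, SE 0.16, limma adjusted p = 0.000898), Uqcr10, a small subunit near cytochrome c1 (1.69, SE 0.36, limma adjusted p = 0.00417), Cox6b1 (1.11, SE 0.17, limma adjusted p = 0.000385) and Atp5d (2.03, SE 0.09, limma adjusted p = 5.28e-08) had the largest changes of their complexes. The 4 lower genes were Ndufs1, Sdha, Uqcrfs1 and Atp5j2, the f subunit of the membrane part of ATP synthase. Atp5j2 was at 9.78, 11.10 and 10.89 in MRP8NRASD12 mice and at 8.98, 9.46 and 9.59 in AML post MDS mice, so that array 8157 stood more than 1 apart from the others of its group. In the same comparison 8 of 14 proliferation genes (median 0.88) and 4 of 8 T cell markers (0.56) were higher, 2 of 9 B cell markers were higher and 3 lower (0.09), 1 of 8 plasma cell markers was higher and 1 lower (0.16), and 2 of 17 neutrophil markers (−0.96), 2 of 16 monocyte and macrophage markers (0.04) and 1 of 8 erythroid markers (−0.16) were lower. Their part in the differences of the subunit genes was not tested.

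Between both BCL-2 founders, MRP8hBCL2 and tethBCL2, which differ in the promoter and neither of which carries NRASD12, 22 subunit genes were higher in MRP8hBCL2 and 5 lower (40% and 9.09%, against 13.5% and 9.12% of all genes), with a median of 0.29 against 0.03. Ndufs7 was 2.23 higher (SE 0.11, limma adjusted p = 1.77e-07), Cox6a1 0.78 (SE 0.11, limma adjusted p = 0.000167) and Atp5d 2.05 (SE 0.09, limma adjusted p = 4.4e-08). Atp5mpl, a small proteolipid of ATP synthase, had the largest downward change in complex V, at −1.13. With array medians subtracted the counts were 17 higher and 8 lower and the median over the 55 genes was 0.12. Calls over all genes were not counted under that scaling. Markers moved here too, with 12 of 17 for neutrophils (median 3.31), 7 of 14 for proliferation (1.03) and 5 of 8 for T cells (0.75) higher, 4 of 16 for monocytes and macrophages higher and 1 lower (0.73), 2 of 9 for B cells lower (0.02), and 1 of 8 higher and 1 lower for both erythroid (0.12) and plasma cells (0.37). Their part was not tested.

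AML post MDS compared with HR-MDS mice gave 29 subunit genes higher and 6 lower (52.7% and 10.9%, against 14.3% and 9.9% of all genes), with a median of 0.42 against 0.00. Cyc1 was at 9.09, 9.14 and 9.04 in HR-MDS and at 10.21, 9.96 and 10.10 in AML post MDS mice, 1.0 higher (SE 0.10, limma adjusted p = 1.79e-05). Cox6b1 was 1.20 higher (SE 0.17, limma adjusted p = 0.000187). Cox4i1 was at 9.72, 9.76 and 9.58 against 9.73, 9.64 and 9.74, a difference of 0.02 with overlapping groups (SE 0.09, limma adjusted p = 0.912). The ages of these mice differ as well, at day 80 and day 36. Beside the subunit genes, 9 of 14 proliferation genes (median 1.14) and 4 of 17 neutrophil markers (0.42) were higher, 4 of 8 T cell markers were higher and 2 lower (0.31), 3 of 16 monocyte and macrophage markers were higher and 2 lower (0.14), and 3 of 9 B cell (−0.14), 1 of 8 erythroid (0.12) and 1 of 8 plasma cell markers (0.05) were lower. Their part was not tested.

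**Figure D5:**
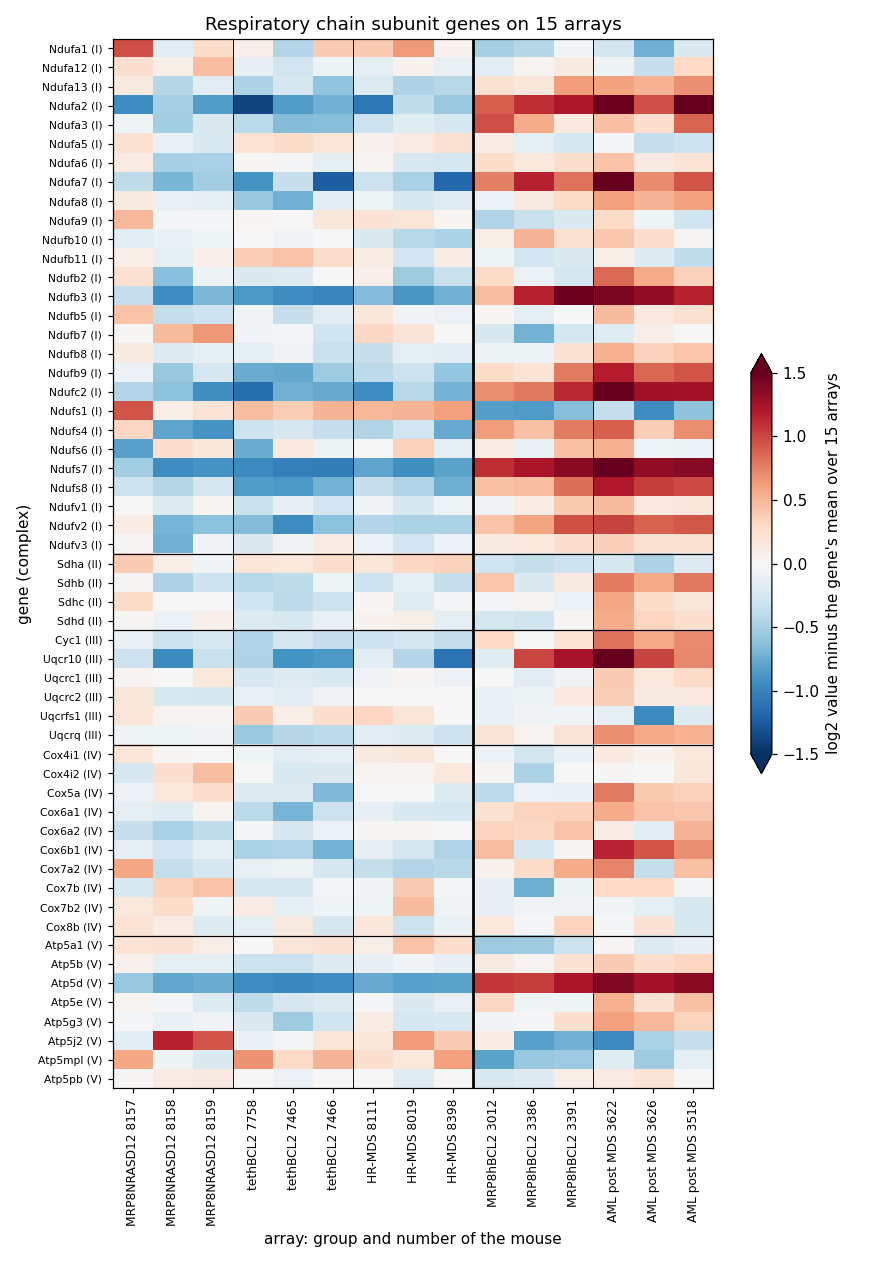
Log2 value of each of the 55 subunit genes (rows, with the complex in brackets) on each of the 15 arrays (columns, with the number of the mouse), less the gene's mean over all arrays. Red is above and blue below that mean, colours end at 1.5 either way, the thick line separates the series and thin lines the groups and complexes. The change of colour at the thick line is marked in Ndufs7, Ndufa2, Ndufb3, Ndufc2 and Atp5d and turned round in Ndufs1.

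The forms of complex IV subunits that are restricted to certain tissues had few calls. Cox7b2, known from testis, was between 2.80 and 3.51 on the 15 arrays and Cox8b, the muscle form of subunit VIII, between 5.47 and 6.13, with no call in any of the 7 comparisons between groups. Cox4i2, the form known from lung, was between 6.12 and 7.06, also without a call. Cox6a2 was higher in AML post MDS than in MRP8NRASD12 mice (0.55, limma adjusted p = 0.00999) and in MRP8hBCL2 than in tethBCL2 mice (0.48, limma adjusted p = 0.0214), both across the series. Its values in AML post MDS mice, 7.78, 7.48 and 8.16, spread over those of their MRP8hBCL2 founders, 7.99, 7.96 and 8.09.

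Genes that serve the chain without being subunits were read beside it. Between AML post MDS and MRP8hBCL2 mice none of 12 assembly factors of complex I (median 0.13), 22 of complexes II to V (0.09), 14 genes of ubiquinone synthesis, cytochrome c and exchange carriers (0.24), 15 genes of pyruvate entry and the citric acid cycle (0.16) and 18 of mitochondrial gene expression and biogenesis (−0.05) passed. Between HR-MDS and tethBCL2 mice none passed either, with medians of 0.10, 0.02, 0.03, 0.10 and −0.06 in the same order, and between HR-MDS and MRP8NRASD12 mice none, with 0.01, 0.01, 0.05, 0.00 and 0.09. At an unadjusted p under 0.05 the 3 comparisons gave 13 genes higher and 3 lower (16% and 3.7%, against 10.1% and 5.67% of all genes), 4 and 2 (4.94% and 2.47%, against 8.4% and 2.91%), and 1 and 2 (1.23% and 2.47%, against 2.52% and 3.58%) of the 81 genes in these lists together.

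In tethBCL2 compared with MRP8NRASD12 mice 7 of these 81 genes passed, 3 higher and 4 lower (3.7% and 4.94%, against 2.85% and 5.98% of all genes), which is close to the background. Idh2, the mitochondrial NADP isocitrate dehydrogenase, fell by 0.85 (SE 0.15, limma adjusted p = 0.0053), Mdh2, mitochondrial malate dehydrogenase, by 0.41 (SE 0.10, limma adjusted p = 0.0204), Vdac1, the channel of the outer membrane, by 0.64 (SE 0.16, limma adjusted p = 0.0244) and Ndufaf3, an assembly factor of complex I, by 0.32 (SE 0.09, limma adjusted p = 0.0458). Ppargc1a, a coactivator of mitochondrial biogenesis, was 0.69 higher (SE 0.19, limma adjusted p = 0.0364), and so were Coq5 and Coq6, enzymes of ubiquinone synthesis, by 0.38 and 0.39 (limma adjusted p = 0.0421 and 0.0357).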

How the data were processed

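Sca1+ spleen cells of 15 mice were hybridised to 1 array each. The authors deposited log2 expression values per probe set, made with EASANA on FAST DB annotation of the mouse genome (mm9). The summary of probes and the scaling of arrays were not stated in the sources used here, and the authors' filter on detection above background was not repeated. Of 23332 probe sets, 14996 had a single symbol, 1019 several and 7317 none in the platform annotation. For a gene with several probe sets the one with the highest mean was kept, which left 14860 genes, 14805 of them matched to RefSeq by Entrez number.

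The deposited log2 values were fitted in limma 3.58.1 (R 4.3.3) with 1 coefficient per genotype (5 in all) and a common spread from the 15 arrays, without pseudocount or low-value filter. P-values were two-sided and adjusted by Benjamini-Hochberg over all genes, with a threshold of 0.05. The methods call the analysis unpaired but name a paired form of Student's test. No pairing of mice is given, so the unpaired form was run as an alternative on the same values (the methods' t-test). With 3 mice a group, an exact permutation test of a single gene could not go below 0.1. The labels do not say that replicates are separate litters. For the signal of arrays no read depth exists, and their number limits the precision. The scripts were tested on simulated data.

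Members, lists and comparisons were chosen with earlier results of these data known. In each complex the text names up to 3 genes past the threshold within a series and up to 2 across series (reduced from 3 after values were seen) with the largest change, or up to 2 with the smallest p where none passed. Genes named beyond these, such as Sdhb, Uqcrc1, Uqcrfs1 and Ndufc2, were chosen after their values were seen. Promoter windows were read with pandas 2.3.3 in Python 3.11.15, and plots drawn with matplotlib 3.10.9. Alternatives covered scaling, a filter on low means, the arrays fitted, the variance model, array weights, the probe set rule, the t-test and leaving out each array.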

Additional observations from a re-analysis of the deposited data

How the results depend on the processing

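The direction of the median over the 55 subunit genes rested on the scaling in 2 comparisons. With each array's median subtracted it was −0.0117 for HR-MDS against tethBCL2 (0.16 as deposited) and 0.0048 for tethBCL2 against MRP8NRASD12 (−0.21), and for MRP8hBCL2 against tethBCL2 it was 0.12 (0.29). Quantile normalization kept the direction, with 0.14, −0.15 and 0.23 in the same order. Subtracting array medians moved the median of all genes to −0.14, 0.16 and −0.14 in these 3 comparisons.

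For tethBCL2 against MRP8NRASD12 the 4 genes past the threshold became 9 (1 higher, 8 lower) after quantile normalization, 15 (6 higher, 9 lower) with array weights, 0 with only the arrays compared, 0 with the methods' t-test after adjustment, 11 (3 higher, 8 lower) without MRP8NRASD12 8157 and HR-MDS 8398 together, a setting added after seeing the data, and 0 to 12 when 1 array was left out. For AML post MDS against MRP8hBCL2 the 5 genes became 10, 19, 0 and 0 in the first 4 of these settings, and 0 to 9 when 1 array was left out. Array weights gave array 8157 a weight of 0.17. For AML post MDS against MRP8NRASD12 the 32 genes became 20 with only the arrays compared and 8 with the methods' t-test, and for AML post MDS against HR-MDS the 35 became 19 with that test. That test gave 0 of 14860 genes after adjustment for AML post MDS against MRP8hBCL2, 5 for HR-MDS against tethBCL2 and 76 for tethBCL2 against MRP8NRASD12. It gave 292 for AML post MDS against MRP8NRASD12 and 1408 for AML post MDS against HR-MDS. In the other alternative settings, calls over all genes were not counted. The counts of subunit genes given for them, here and above, therefore have no share of all genes beside them. Why the counts moved was not tested. When 1 array was left out the median for HR-MDS against MRP8NRASD12 ran from −0.13 to 0.00, the latter without array 8157.

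The count stayed at 0 for HR-MDS against tethBCL2, for HR-MDS against MRP8NRASD12 and for the difference of the NRASD12 effects in every setting run. Over 38 results on named genes and 570 settings, 485 kept direction and side of the threshold, 85 kept the direction but lost the call, and 0 changed direction. All of these genes were named for having passed with the largest changes, which favours a kept direction. Within the series a gene kept its call in 5 to 11 of 15 settings, and across the series in 10 to 15. No paired analysis was possible because the replicate numbers follow accession order and the mouse numbers in the titles are not shared between groups.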
